A study of Mus musculus with 5 samples.

Results

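Light-treated CD4 T cells of mice with autoimmune colitis were compared between tissues: CD4 T cells sorted from the colon and CD4 T cells sorted from a lymph node, each as 1 messenger RNA library. These 2 libraries are 2 of the 5 samples of the study and were taken by their labels for tissue and treatment. They list 8725 named genes between them, of which 3777 have a count in both. The light came from a laser of wavelength 980 nm, set to 1.22 W with 80% duty, that covered 4 square centimetres for 5 minutes, and sessions were repeated every 2 days. The untreated lymph node library, from CD4 T cells of control mice, is given beside them as a further level. No ratio was taken against the colon control library. Strain, age, number of mice and whether mice were pooled were not stated, and the untreated library is described only as a control.

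CD4 T cells are the helper lineage of the adaptive immune system. Their antigen receptor is an alpha and a beta chain held in the CD3 complex, and it recognises peptide on MHC class II molecules, which B cells, macrophages and dendritic cells display. In a lymph node most of these cells are naive or recirculating, carrying genes of quiescence and recirculation. In the gut wall most are effector or tissue-resident memory cells, and signals through the receptor are known to switch on immediate early genes such as Fos and Jun.

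Levels are in CPM, a gene's deposited count, summed over all barcode columns and scaled to a library total of 1e+06. Totals of the deposited counts were 1959296 (colon light) and 1068864 (lymph node light). Each molecule had been counted in many barcode columns, 39.4 on average in the colon light and 39.9 in the lymph node light library, so the columns are not cells or replicates. The sums stood for about 39297 and 21214 independent counts, called molecule-equivalents below, against 11499 in the lymph node control. Where a gene's columns could be resolved into single molecules, their number is given as molecules, and a number that is not whole belongs to a gene that was resolved only in part. The largest numbers are rounded to whole ones. Among them are those of Ccl5, Fth1, Tmsb4x and Tmbim4, which were resolved only in part in the colon light library. Each log2 ratio is colon light over lymph node light, with an exact 95% Clopper-Pearson interval on molecule-equivalents that covers counting error only. With 1 library a side there is no replicate check and no p-value, and tissue, animal and library cannot be told apart. A level under 3 molecule-equivalents, which is 76.3 CPM in the colon light, 141 CPM in the lymph node light and 261 CPM in the lymph node control library, is treated as near the detection limit.

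The sort label was checked first. Genes of the T-cell receptor complex were present in all 3 libraries. Colon epithelium markers (0 of 30 genes, Epcam, Krt8 and Muc2 among them) and mast cell and eosinophil markers (0 of 13) had no count in any of the 3 libraries, for which the exact 95% upper limit is a summed share of 0.00939% in the colon light and 0.0174% in the lymph node light library. Of 19 B-cell and plasma-cell markers only Igkc, with 2 molecules in the colon light and 3 in the lymph node control library, and Ighm, with 1 molecule in the lymph node light library, had a count. Cd79a and Ms4a1 were listed at 0. Myeloid markers were present, with 0.451% of colon light counts, 0.190% of lymph node light counts and 0.317% of lymph node control counts, and are described with the class II genes. Foxp3 was left out, because its values by column position were correlated between the tables (0.70 over all column positions, while the largest among 644 other genes was 0.164, for Ptprc).

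The 4 promoter sequences are shown because 2 sets of genes stood out as higher in the colon, the class II genes and the immediate early genes, and each set has a known kind of promoter element. They are the 250 bases before the transcription start on the strand of the gene, from RefSeq on GRCm38.p6, and capitals mark the letters TGATTGG (the core of the class II Y box, bound by NF-Y) and TGACGT (the core of the cyclic AMP response element, which in class II promoters forms part of the X box), searched on both strands. H2-Eb1 (chr17:34305617-34305866, plus strand) and H2-Aa (chr17:34287824-34288073, minus strand) encode class II beta and alpha chains.
H2-Eb1: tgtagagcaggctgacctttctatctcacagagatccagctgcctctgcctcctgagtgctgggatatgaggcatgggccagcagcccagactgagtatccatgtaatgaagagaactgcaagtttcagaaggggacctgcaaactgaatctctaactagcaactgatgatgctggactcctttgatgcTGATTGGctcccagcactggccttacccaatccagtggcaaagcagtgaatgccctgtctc
H2-Aa: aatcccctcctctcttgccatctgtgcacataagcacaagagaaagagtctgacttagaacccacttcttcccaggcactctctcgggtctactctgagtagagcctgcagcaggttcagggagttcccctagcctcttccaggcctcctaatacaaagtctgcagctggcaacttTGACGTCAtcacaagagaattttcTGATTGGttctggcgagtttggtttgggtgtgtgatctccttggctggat
Fos (chr12:85473640-85473889, plus strand) encodes a subunit of the AP-1 transcription factor, and Btg1 (chr10:96616751-96617000, plus strand) an antiproliferative protein of quiescent lymphocytes.
Fos: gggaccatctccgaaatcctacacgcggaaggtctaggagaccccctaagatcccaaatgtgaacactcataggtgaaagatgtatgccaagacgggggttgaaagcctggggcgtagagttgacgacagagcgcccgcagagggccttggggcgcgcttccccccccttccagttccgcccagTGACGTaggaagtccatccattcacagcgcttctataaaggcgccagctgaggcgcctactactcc
Btg1: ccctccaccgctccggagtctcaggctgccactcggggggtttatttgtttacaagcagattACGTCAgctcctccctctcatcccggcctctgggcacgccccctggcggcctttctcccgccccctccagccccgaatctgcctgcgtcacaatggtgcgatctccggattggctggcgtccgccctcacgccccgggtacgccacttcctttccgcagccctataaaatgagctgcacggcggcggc
TGATTGG starts 61 bases before the start of H2-Eb1 and 50 bases before that of H2-Aa. In H2-Aa the letters TGACGT occur on both strands, starting 74 and 72 bases before the start and overlapping in 1 palindrome. They lie 66 bases before the start of Fos, and on the opposite strand of Btg1 their first base by position lies 188 bases before the start. Of 27025 promoters of the same length 7.65% hold TGATTGG and 6.56% hold TGACGT. Among listed class II genes with a promoter sequence there, 7 of 11 hold TGATTGG, while 1 of 11, H2-Aa, holds TGACGT. Cd74 and H2-Ab1, both higher in the colon, are not among the 7. H2-DMb2, H2-Oa and H2-Ob are, and had no count in either light library. Among listed immediate early genes 6 of 25 hold TGACGT and 3 of 25 hold TGATTGG. These matches describe letters only, and binding was not tested.

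Across genes, 304 reached 20 molecule-equivalents when both libraries were summed, and they hold 64.9% of counts in the colon light and 54.5% in the lymph node light library. Of these, 41 were at least 2-fold higher in the colon (13.5%) and 59 at least 2-fold lower (19.4%), around a median log2 ratio of -0.34. The interval lay above 0 for 34 genes and below 0 for 75. A gene high in either library can pass the count filter of 20 molecule-equivalents through that library alone. The place of such a gene among the higher or lower genes rests partly on the filter. Ribosomal RNA made up 35.5% of the colon light library, 19.1% of the lymph node light and 12.6% of the lymph node control library. Taking its 3 genes, CT010467.1, mt-Rnr1 and mt-Rnr2, out of the totals raised the ratio of well-counted genes by 0.33, to a median of -0.02, and gave 53 genes at least 2-fold higher and 31 lower. Ratios below are on the total over all named genes, so a value should be read against -0.34, and the second scale is added where it matters.

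**Figure D1:**
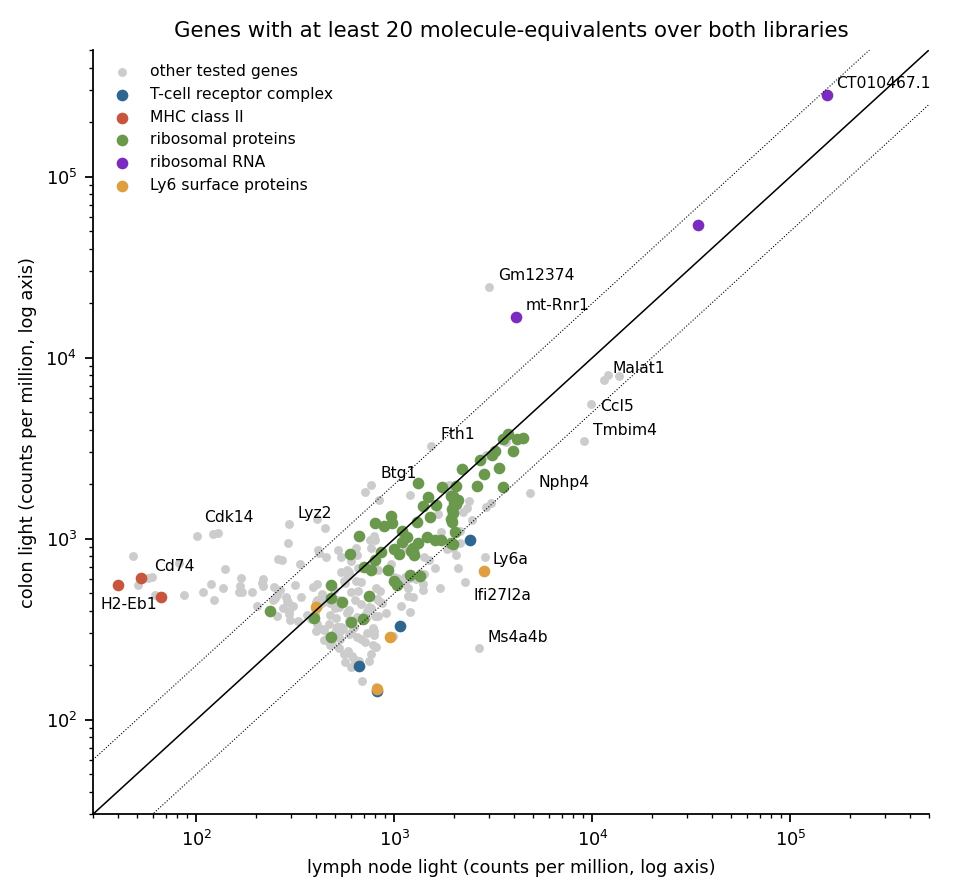
Level of each of the 304 genes in the lymph node light library (horizontal, CPM, log axis) and the colon light library (vertical, CPM, log axis), 1 point per gene; the solid line marks equal levels and the dotted lines 2-fold. Ribosomal RNA and Gm12374 lie above the line, T-cell receptor genes, Ly6a, Ly6c2, Ly6e and Ms4a4b below it, and the 3 class II genes at the far left, at 40.2 to 66.4 CPM in the lymph node.

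The antigen receptor itself was lower in the colon light library. Trbc2, a constant segment of the beta chain, stood at 981 CPM (51.8 molecules) in the colon light, 2418 CPM (55.2 molecules) in the lymph node light and 3592 CPM in the lymph node control library, a log2 ratio of -1.29 (-1.94 to -0.67). Trac, the constant segment of the alpha chain, stood at 144 CPM (9 molecules), 812 CPM (20 molecules) and 726 CPM, a ratio of -2.36 (-4.17 to -1.06). The colon light level was the lowest of the 3 libraries for both segments. Trbc1, the other beta constant segment, which shares most of its sequence with Trbc2 so that reads can be split between them, was at 329, 1063 and 1248 CPM (-1.64, -2.80 to -0.64). Cd3d, a signalling chain of the complex, was at 199, 662 and 1006 CPM (-1.66, -3.21 to -0.37). These 4 genes passed the count filter and all 4 were at least 2-fold lower, against 19.4% of all genes tested.

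The other chains had fewer counts and are given as levels. Cd3g was at 184, 569 and 590 CPM in the colon light, lymph node light and lymph node control libraries, and Cd3e at 121, 641 and 134 CPM, where the untreated value of Cd3e lies under that library's detection limit. Cd247, the zeta chain, was at or under the detection limit in the light libraries, with 1 and 3 molecules. Cd4, the co-receptor that names these cells, had 11 molecules in the colon light and 8 in the lymph node light library (186 and 334 CPM, -0.79, -2.56 to 0.87), an interval that included 0. The summed receptor complex took shares of 0.218% (colon light), 0.660% (lymph node light) and 0.805% (lymph node control) of counts, a ratio of -1.59 (-2.00 to -1.20), or -1.27 (-1.68 to -0.87) without ribosomal RNA in the totals. In sorted bulk cells a smaller number of T cells and less of this RNA per cell cannot be told apart.

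Signalling proteins behind the receptor were lower by less. Over 29 of 31 listed genes with a count, the summed ratio was -0.67 (-0.97 to -0.38), or -0.35 (-0.64 to -0.05) without ribosomal RNA in the totals. Among the 6 well-counted ones 1 was at least 2-fold higher and 2 lower, against 13.5% and 19.4% of all genes tested, and without ribosomal RNA 1 was higher and 1 lower. Lat, the adaptor that relays the receptor signal, was at 232 CPM in the colon light, 760 CPM in the lymph node light and 649 CPM in the lymph node control library (-1.64, -3.07 to -0.45). Lck, the kinase bound to CD4, had 7.1 and 13 molecules in the light libraries (151 and 532 CPM). Ptprc, which encodes CD45 of all leukocytes, was at 1092, 1721 and 764 CPM (-0.65, -1.33 to 0.02), and Thy1, a T-cell surface marker of mice, at 440, 870 and 1140 CPM (-0.96, -2.02 to 0.04). Both intervals included 0. Ptpn22, a phosphatase that restrains the receptor, was the 1 gene on the higher side, at 506 against 164 CPM (1.54, -0.03 to 3.81), also with an interval that included 0.

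Ms4a4b, a membrane protein of resting and recirculating T cells, had the lowest ratio of the named genes. It was at 248 CPM (16 molecules) in the colon light, 2672 CPM (60.7 molecules) in the lymph node light and 2124 CPM (26 molecules) in the lymph node control library, a log2 ratio of -3.35 (-4.58 to -2.44). Both lymph node libraries were high and the colon library was low. Its relative Ms4a6b was at 423, 1077 and 1617 CPM (-1.31, -2.35 to -0.37). Ly6c2, a surface protein of memory T cells that shares sequence with Ly6c1, was at 147, 821 and 884 CPM (-2.36, -4.14 to -1.06). The naive and central memory list as a whole stood at -1.83 (-2.31 to -1.38) and, without Ms4a4b, at -1.12 (-1.70 to -0.56). Other members were too sparse to compare: Tcf7 and Klf2 were at 0 in the lymph node light library with 1 and 6 molecules in the colon, and Ccr7 had no count in either.

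Ly6 family surface proteins were also lowest in the colon. Ly6a (Sca-1), an interferon-inducible protein of activated and memory T cells, was at 665 CPM (30.6 molecules) in the colon light, 2825 CPM (70.9 molecules) in the lymph node light and 3643 CPM (44 molecules) in the lymph node control library (-2.06, -2.81 to -1.40). Ly6e was at 286, 951 and 1186 CPM (-1.68, -2.93 to -0.61). Emb, another surface protein on the list, did not share this, at 421 and 401 CPM (0.07, -1.21 to 1.46). In all, 3 of 4 well-counted members were at least 2-fold lower, against 19.4% of all genes tested, and the list of 22 genes summed to -1.40 (-1.75 to -1.07). Cd69, which retains T cells in tissue, was on the other side with 10 molecules against 1.

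Interferon-response genes summed lower in the colon. Ifi27l2a, an interferon-inducible mitochondrial protein, was at 573 CPM (25 molecules) in the colon light, 2269 CPM (58 molecules) in the lymph node light and 5287 CPM (61.8 molecules) in the lymph node control library (-1.95, -2.78 to -1.23), in rising order over the 3 libraries. Ifi203, a nuclear protein of the interferon-inducible p200 family, was at 152, 807 and 512 CPM (-2.29, -4.05 to -1.00), and it overlaps Mndal, a close relative, on chromosome 1 (173920407 to 173942672, mm10), so that reads of the pair may be mixed. Shisa5 was at 531 and 810 CPM (-0.59, -1.60 to 0.40). Of 62 listed genes 59 had a count, 55 of them in the lymph node light against 46 in the deeper colon light library. Over all 8725 genes these numbers were 5765 and 6734. The list summed to -1.20 (-1.48 to -0.93), and to -1.06 (-1.37 to -0.76) without Ifi27l2a, while the member Samhd1 (0.23, -1.60 to 2.40) had an interval around 0. Ddx60 and Ifi213 were listed at 0 in the colon against 7 and 6 molecules in the lymph node light library, with interval ends nearest 0 of -1.13 and -0.89 on the log2 scale. Other members leaned the other way on few molecules, among them Oasl1 (8.1 in the colon light library against 0), Gbp2 (12 against 2) and Isg15 (6 against 1). Each of these intervals included 0.

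Effector genes summed lower, by a smaller amount. Ccl5, a chemokine of effector and cytotoxic lymphocytes, was at 5540 CPM (268 molecules) in the colon light, 9814 CPM (266 molecules) in the lymph node light and 25735 CPM (309 molecules) in the lymph node control library, a ratio of -0.82 (-1.11 to -0.54). Nkg7, a cytotoxic granule protein, was at 638, 1404 and 1038 CPM (-1.12, -1.97 to -0.32), and Id2, a regulator of effector and innate lymphocytes, at 522, 1402 and 1900 CPM (-1.40, -2.31 to -0.57). Without ribosomal RNA in the totals the Nkg7 interval just included 0 (-1.64 to 0.003). Ifng, the main Th1 cytokine, did not differ beyond its counting error, at 440 and 474 CPM (-0.10, -1.31 to 1.18), an interval that leaves room for a 2-fold difference either way. The Th1 and cytotoxic list summed to -0.71 (-0.94 to -0.49), and to -0.51 (-0.89 to -0.12) without Ccl5. Some sparse members leaned the other way. Bhlhe40, also on the tissue-residency list below, had 16 molecules against 0, with an interval end nearest 0 of 0.51. Stat4 (10 against 3) and Il12rb2 (6 against 0) had intervals that included 0. Cxcr3 (1 against 3) and Ctsw (0 against 2) leaned lower. The sums hold all of these. The list's shares were 0.891%, 1.46% and 3.27% of counts in the 3 libraries.

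Th17 genes, of the helper subset best known in the gut, pointed the other way on few molecules. The list summed to 0.87 (0.14 to 1.69), with Rora, a transcription factor of this lineage, at 545 CPM (23 molecules) in the colon light, 216 CPM (7 molecules) in the lymph node light and 68.0 CPM in the lymph node control library (1.27, -0.15 to 3.18). Il17a, Il22, Ccr6 and Il23r had no count in either light library. Furin, a protease induced in activated T cells, was at 655 and 588 CPM (0.15, -0.87 to 1.26). Regulatory T-cell genes other than Foxp3 summed to -0.05 (-0.76 to 0.68), and Th2 and follicular helper genes to 0.10 (-0.97 to 1.25), so no difference was detectable there. Gut and lymph node homing receptors summed to -0.90 (-1.52 to -0.29), or -0.57 (-1.19 to 0.03) without ribosomal RNA in the totals, with Itga4, the integrin chain of gut homing, at 3 molecules against 8.

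Genes on the tissue-residency list summed higher in the colon light library. None of the 20 passed the count filter, so they are given as levels and a sum. Rgs1, a brake on chemokine receptor signalling and a common mark of resident T cells, had 21 molecules (433 CPM) in the colon light library, 0 in the lymph node light and 1 in the lymph node control. Its log2 ratio had an interval end nearest 0 of 1.16. Bhlhe40, a transcription factor of effector and resident cells, had 16 molecules against 0 and 1 (interval end nearest 0 of 0.51), and Runx3 11 against 2 and 1. Cxcr6, also on the list, went the other way, with 5 molecules against 8 and 7 (98.0, 403 and 524 CPM). The list summed to 1.72 (0.99 to 2.58), and to 1.47 (0.73 to 2.33) without Rgs1. It shares Dusp1, Dusp2 and Nr4a1 with the immediate early list and also holds Hspa1a, a heat-shock gene, and Crem, a cyclic AMP-responsive factor, all 5 listed at 0 in the lymph node light library. Of the defining residency markers, Itgae and Znf683 had no count in either light library, Itga1 had 1 molecule in the colon light library, and Cd69 had an interval that included 0 (-0.12 to 8.87).

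Immediate early genes, which are transcribed within minutes of a stimulus, were higher in the colon light library. Jun, the partner of Fos in AP-1, was at 678 CPM (36.7 molecules) in the colon light, 139 CPM (4 molecules) in the lymph node light and 91.6 CPM (1 molecule) in the lymph node control library (2.16, 0.57 to 4.67). Fos had 16 molecules (329 CPM) in the colon light library and 0 in the others, with an interval end nearest 0 of 0.71 against the lymph node light library. Btg1 had 90.6 molecules (1985 CPM), 19 molecules (764 CPM) and 6 molecules (488 CPM), a ratio of 1.36 (0.59 to 2.25). For these 3 genes the colon light library was the highest of the 3. Jun passed the count filter through that library alone, and its lymph node light level was just under the detection limit. Klf6 had 15 molecules against 0 and 0 (interval end nearest 0 of 0.86), Btg2 15 against 1 and 1, and Dusp1, which shuts off MAP kinase signalling, 10 against 0 and 0. All 24 of the 31 listed genes with a count had it in the deeper colon light library, and 10 also in the lymph node light. Of all 8725 genes, 6734 had a count in the colon light and 5765 in the lymph node light library. The list took 0.596% of counts against 0.142% and 0.146%, a ratio of 2.05 (1.52 to 2.66), and without Btg1 of 2.56 (1.80 to 3.50). Junos lies antisense to Jun, and it was not stated whether counting used strand.

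NF-kB targets and inflammatory genes were higher as well. Il1b, the inflammatory cytokine made mainly by monocytes, macrophages and neutrophils, had 35 molecules (603 CPM) in the colon light library, 1 molecule (57.1 CPM) in the lymph node light and 0 in the lymph node control (3.07, 0.96 to 7.98), and it shares its locus with the antisense gene Il1bos. Nfkbia, the inhibitor that NF-kB induces to limit itself, was at 605 CPM (28 molecules), 167 CPM (5 molecules) and 219 CPM (1.76, 0.24 to 3.99). Tnfaip3, another such inhibitor, had 23 molecules against 2 and 1. Both Il1b and Nfkbia passed the count filter through the colon light library alone, and Il1b was under the detection limit in the lymph node light library. Traf1 and Ltb, both NF-kB targets of lymphocytes, were at 0.52 (-0.97 to 2.31) and -0.21 (-1.69 to 1.35), with intervals that included 0. The list summed to 1.51 (0.98 to 2.10).

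Class II antigen presentation genes had the highest summed ratio of the lists with an interval above 0. Cd74, the invariant chain that escorts class II molecules, had 28.1 molecules (609 CPM) in the colon light library, 2 (52.4 CPM) in the lymph node light and 1 (90.6 CPM) in the lymph node control, a ratio of 3.18 (1.02 to 8.45). H2-Eb1 had 24, 1 and 2 molecules (556, 40.2 and 197 CPM), a ratio of 3.33 (interval from 1.00 to 9.94), and H2-Ab1, the other beta chain, 24.1, 2 and 2 molecules (475, 66.4 and 194 CPM), a ratio of 2.57 (0.50 to 6.91). The colon light library was highest for each, and the lymph node light values rest on 1 or 2 molecules, under the detection limit. H2-Aa had 19.1 molecules (351 CPM) against 0 in the lymph node light and 2 in the lymph node control library, with an interval end nearest 0 of 0.82. These genes passed the count filter, or came near it, through the colon library alone, so the sum over all 15 listed genes, which uses no filter, is given too: 0.280% of counts against 0.0465% and 0.129%, a ratio of 2.55 (1.65 to 3.70), and 2.36 (1.40 to 3.60) without Cd74.

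Myeloid markers were higher in the same library as the class II and inflammatory genes. Lyz2, lysozyme of macrophages and neutrophils, had 59.8 molecules (1198 CPM) in the colon light library, 8.8 (293 CPM) in the lymph node light and 0 in the lymph node control (1.97, 0.82 to 3.52). Fcer1g, the shared Fc receptor chain of myeloid and natural killer cells, had 23, 3 and 2 molecules (1.77, 0.03 to 4.54). Cybb, the phagocyte oxidase, had 13.3 molecules against 0 and 0, Tyrobp 10 against 1 and 0, Csf1r 6 against 0 and 0, and C1qa 5 against 0 and 0. These are low numbers. The colon light library had the most molecules in each case, but it is also the deepest library. A 0 allows a level of up to 141 CPM in the lymph node light and 261 CPM in the lymph node control library. A few molecules against 0 therefore do not show which level was highest. Plac8, which T cells also express, was at 986, 752 and 1977 CPM (0.38, -0.48 to 1.33). Of 31 listed markers 20 had a count in at least 1 of the light libraries, 19 of them in the deeper colon light and 12 in the lymph node light. Over all 8725 genes these numbers were 6734 and 5765. Cd14, Adgre1, Itgam, S100a8, S100a9 and Csf3r were listed at 0 in both. The list ratio was 1.23 (0.74 to 1.77), and 1.60 (0.98 to 2.29) without Plac8. What part myeloid RNA had in the class II, inflammatory, immediate early and residency-list values was not tested.

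**Figure D2:**
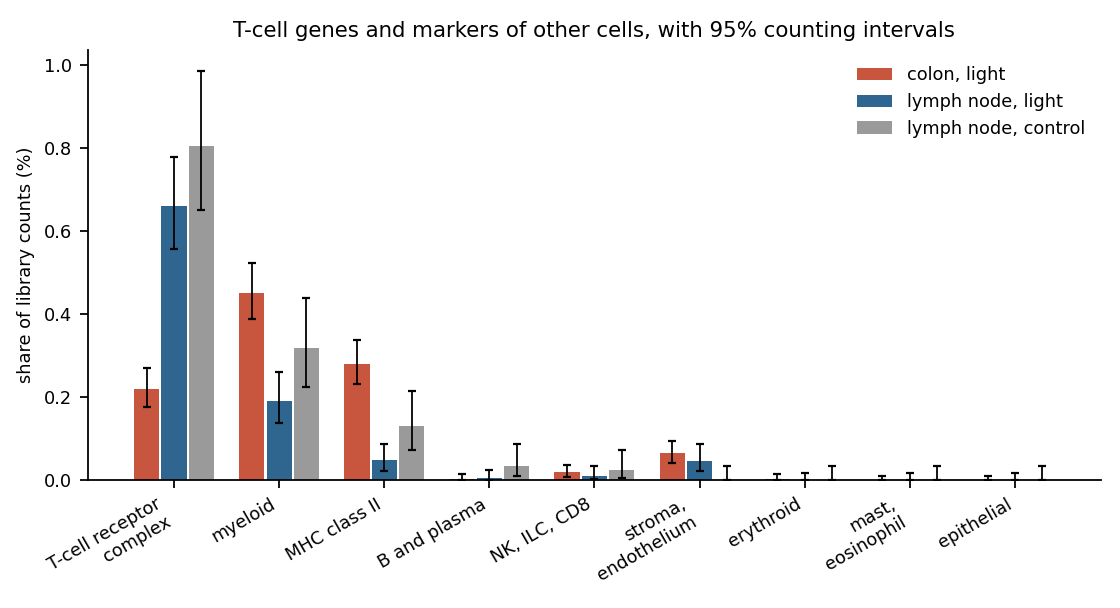
Share of library counts (%, bars from 0, with exact 95% counting intervals) taken by the T-cell receptor complex, class II genes and markers of other cells in the colon light, lymph node light and lymph node control libraries, 1 library each. The receptor complex stands at 0.660% in the lymph node light and 0.218% in the colon light library, myeloid markers at 0.190% and 0.451%, and epithelial and mast cell bars are at 0.

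Since the receptor complex was lower as a whole, genes were also set against it. For each gene or list the log2 ratio of the summed complex was subtracted, with a normal interval on the log scale, a reading chosen after the values were seen. The complex was itself among the lowest lists, so most genes lie above it by that choice, and values are read against the median of 1.19 over the 282 well-counted genes with at least 3 molecule-equivalents in each light library. The 1 gene of these with an interval below 0 was Ms4a4b, at -1.84 (-2.89 to -0.78). Ly6a was at -0.49 (-1.26 to 0.28) and Ifi27l2a at -0.39 (-1.21 to 0.43), so neither was lower than the receptor beyond counting error. The interferon-response list was at 0.39 (-0.08 to 0.86), the Ly6 surface list at 0.19 (-0.32 to 0.70) and the naive and memory list at -0.24 (-0.83 to 0.35). Ccl5 was at 0.77 (0.30 to 1.25), above the receptor, with an interval that included the median. Immediate early genes stood 3.66 (2.99 to 4.33) above the complex and tissue-residency genes 3.34 (2.503 to 4.17).

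Cytoskeletal genes had a summed ratio below 0. Tmsb4x, the actin-binding thymosin beta 4, was at 7892 CPM (390 molecules) in the colon light, 13680 CPM (383 molecules) in the lymph node light and 14961 CPM in the lymph node control library (-0.79, -1.03 to -0.56), and Actb, beta actin, at 8061, 11964 and 11820 CPM (-0.57, -0.81 to -0.33). Cfl1, the actin-severing cofilin, was at 952 and 2139 CPM (-1.15, -1.83 to -0.51) and Vim, the intermediate filament vimentin, at 289 and 980 CPM (-1.71, -2.95 to -0.65). S100a6, a calcium-binding protein of effector T cells, was at 560 and 1398 CPM (-1.29, -2.19 to -0.48). Of 23 well-counted members 6 were at least 2-fold lower (26.1%, against 19.4% of all genes tested) and 0 higher, and without ribosomal RNA in the totals 2 were lower. The list had a median of -0.57 beside -0.34 for all genes. The summed ratio was -0.64 (-0.76 to -0.52), and -0.32 (-0.44 to -0.20) without ribosomal RNA in the totals. Tmsb10 (0.07, -0.50 to 0.66) and Rac2 (0.32, -0.63 to 1.35) were not lower.

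Ribosomal protein genes, 69 of 83 well counted, had a median of -0.21 and 3 of them were at least 2-fold lower, against 19.4% of all genes tested. Rplp0, Rps4x and Rpl18 were those 3. The family summed to -0.26 (-0.33 to -0.18) on the total over all genes but to 0.07 (-0.004 to 0.14) without ribosomal RNA in it, so its direction depends on the scale. Nuclear genes of mitochondrial complexes IV and V summed to -0.57 (-0.84 to -0.30), or -0.24 (-0.51 to 0.02) on the second scale, with Atp5c1 at -1.36 and Cox4i1 at -1.23, and those of complexes I to III to -0.74 (-1.08 to -0.41), or -0.42 (-0.75 to -0.08). Mitochondrially encoded messenger RNAs stood at -0.29 (-0.66 to 0.08), with mt-Nd1 at 1403 and 2232 CPM and mt-Co1 at 1036 and 784 CPM. MHC class I genes, which every nucleated cell carries, had 0 of 5 well-counted members past 2-fold. The list summed to -0.47 (-0.75 to -0.18), or -0.14 (-0.43 to 0.15) without ribosomal RNA in the totals. H2-K1, a heavy chain, was at 1104 and 2131 CPM (-0.94, -1.58 to -0.32), and B2m, the shared light chain, was at 1439 and 1988 CPM (-0.46, -1.07 to 0.14). On the total without ribosomal RNA the H2-K1 interval just included 0 (-1.26 to 0.01). H2-D1, another heavy chain, did not pass the count filter and leaned the other way, with 15 molecules against 2 (1.85, -0.28 to 5.83). Its interval without ribosomal RNA was 0.05 to 6.16.

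Ribosomal RNA was unevenly higher in the colon light library, and long noncoding RNAs differed in direction. The cytoplasmic ribosomal RNA gene CT010467.1 (chromosome 17, 39846353 to 39848827, minus strand) took 284200 CPM in the colon light, 153180 CPM in the lymph node light and 104680 CPM in the lymph node control library (0.89, 0.84 to 0.95). The mitochondrial ribosomal RNAs did not share 1 ratio, with mt-Rnr1 at 16775, 4127 and 3164 CPM (2.02, 1.70 to 2.36) and mt-Rnr2 at 53715, 34061 and 17772 CPM (0.66, 0.53 to 0.78). Their intervals do not overlap, although both lie side by side on 1 mitochondrial transcript. Gm12374, a long noncoding RNA gene of chromosome 4 (37249403 to 37332515), was at 24687 CPM (1127 molecules) in the colon light, 2995 CPM (79.5 molecules) in the lymph node light and 24471 CPM (296 molecules) in the lymph node control library (3.04, 2.68 to 3.43), so the light-treated lymph node was the low library. Malat1, the abundant nuclear noncoding RNA, went the other way at 7547, 11406 and 14770 CPM (-0.59, -0.85 to -0.34). The long noncoding list summed to 1.14 (0.96 to 1.32) with Gm12374 and to -0.46 (-0.70 to -0.22) without it.

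The named gene with the highest ratio was Snord49b, a box C/D small nucleolar RNA that guides methylation of ribosomal RNA. It had 34, 1 and 3 molecules (805, 47.7 and 286 CPM) in the colon light, lymph node light and lymph node control libraries, a ratio of 3.68 (1.51 to 9.37). Snord49b passed the count filter through the colon light library alone, so its rank rests partly on the filter. The gene lies within its host transcript 2410006H16Rik on chromosome 11 (62603079 to 62603150), which was also higher, with 23, 3 and 2 molecules (1.84, 0.20 to 4.40), and reads of the pair cannot be told apart. Mir6236, which also passed the filter through the colon light library alone, had 42, 3 and 0 molecules (2.97, 1.37 to 5.73). Its mature sequence (chr9:110281353-110281371, plus strand, RefSeq on GRCm38.p6) is shown with the seed, bases 2 to 8, in capitals, because it was the only microRNA gene among the named genes.
mmu-miR-6236: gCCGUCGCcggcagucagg
This sequence occurs in 1 GENCODE M21 transcript, that of Mir6236. A poly(A) library primed with oligo-dT does not capture mature microRNAs as such, so the counts are for reads assigned to the annotated hairpin.

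The splicing list showed no summed difference beyond counting error. Hnrnpd (AUF1), which binds AU-rich messenger RNAs and controls their decay, had 47 molecules (1040 CPM) in the colon light library, 3 (100.1 CPM) in the lymph node light and 3 (331 CPM) in the lymph node control (3.18, 1.48 to 6.34). Hnrnpd passed the count filter through the colon light library alone. Ddx5, an RNA helicase, had 53.7, 8 and 5 molecules (1.65, 0.46 to 3.22). The colon light library was highest for both. Snrpe and Srsf3, a core and a regulatory splicing factor, were lower at -1.56 (-3.15 to -0.24) and -1.36 (-2.92 to -0.02), as was Ybx1, a messenger RNA packaging protein, at -1.36 (-2.33 to -0.48). Without ribosomal RNA in the totals the intervals of Snrpe and Srsf3 included 0, while that of Ybx1 did not (-2.01 to -0.16). Of 11 well-counted splicing genes 2 were at least 2-fold higher (18.2%, against 13.5% of all genes tested) and 3 lower (27.3%, against 19.4%), and the list summed to -0.13 (-0.36 to 0.09).

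Stress and iron genes were higher for single members. Hspa5 (BiP), the chaperone of the endoplasmic reticulum, had 65.3 molecules (1278 CPM) in the colon light library, 12 (404 CPM) in the lymph node light and 3 (247 CPM) in the lymph node control (1.62, 0.60 to 2.90). Its partner Hsp90b1 did not share this, at 422 and 523 CPM (-0.30, -1.50 to 0.93). Fth1, ferritin heavy chain, which stores iron, had 162, 40 and 23 molecules (3251, 1532 and 1805 CPM), a ratio of 1.08 (0.52 to 1.69), and without it the redox and iron list stood at -0.12 (-0.65 to 0.42). Cytosolic heat-shock genes varied. Hspa8 was at 794 and 1411 CPM (-0.82, -1.60 to -0.06), an interval that included 0 without ribosomal RNA in the totals (-1.27 to 0.27). Dnaja1 was at 1.07 (-0.30 to 2.84), Hsp90aa1 at 0.71 (-0.29 to 1.85) and Hsp90ab1 at 0.02 (-0.56 to 0.62). The list of 34 summed to 0.07 (-0.20 to 0.34), or 0.40 (0.13 to 0.67) without ribosomal RNA. Slc31a1, a copper importer, had 28 molecules against 1 and 2 (3.09, 0.89 to 8.52), and passed the count filter through the colon light library alone.

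A last set of named genes was not described with the groups above. Tmbim4, a Golgi membrane protein of the Bax inhibitor family, was at 3449 CPM (173 molecules) in the colon light, 9030 CPM (255 molecules) in the lymph node light and 4591 CPM (63.3 molecules) in the lymph node control library (-1.38, -1.72 to -1.06). Nphp4, a ciliary protein, was at 1782, 4828 and 1147 CPM (-1.43, -1.90 to -0.99), so that the light-treated lymph node was the high library for both. Zmynd8, a chromatin reader, was at 792, 2879 and 2217 CPM (-1.84, -2.53 to -1.22). Nrg2, Oit3, Sltm and Cmtm7 were lower as well, with ratios of -1.65, -1.57, -1.31 and -1.96. On the higher side Cdk14 had 48 molecules (1071 CPM) in the colon light library, 5 (128 CPM) in the lymph node light and 15 (1120 CPM) in the lymph node control (2.91, 1.35 to 5.56), so here too the light-treated lymph node stood apart. Ank2 (3.05, 0.97 to 7.77), Grk6 (2.93, 1.07 to 6.63), Dnaaf1 (2.69, 0.58 to 7.30), Gramd3 (2.29, 0.38 to 5.85) and Lars2 (2.10, 0.39 to 4.93) each rested on 2 or 3 molecules in the lymph node light library. Cdk14, Ank2, Grk6 and Lars2 passed the count filter through the colon light library alone, and Dnaaf1 and Gramd3 almost so. Of the 40 named genes 19 overlap another annotated gene, often on the opposite strand, and reads in the overlap may belong to either.

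**Figure D3:**
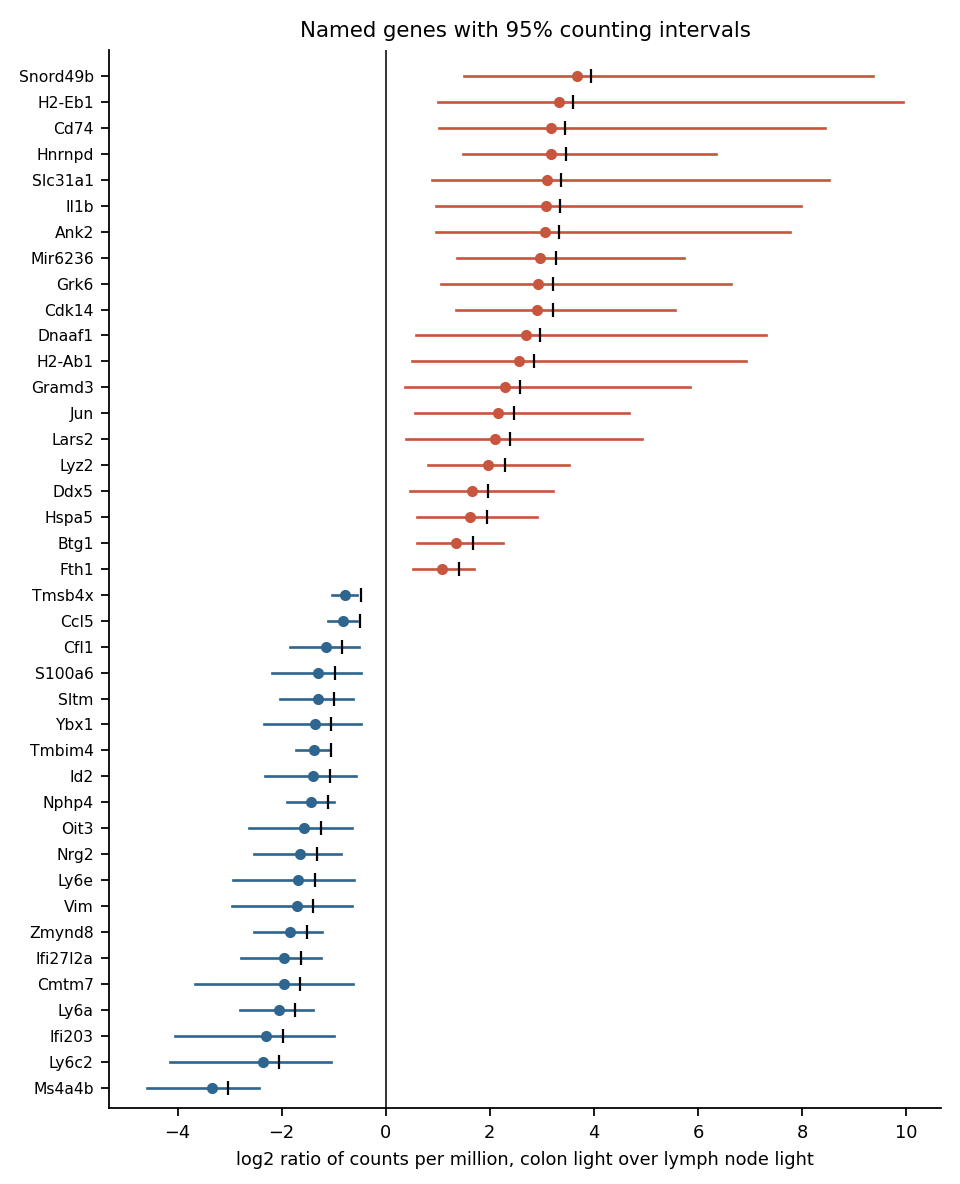
Log2 ratio of CPM, colon light over lymph node light (horizontal), for the 40 named genes, 20 higher (red) and 20 lower (blue); points are ratios on the total over all genes, lines exact 95% counting intervals, and ticks the ratio without ribosomal RNA in the totals. Lines of the higher genes are long because few molecules lie in the lymph node light library, and Ms4a4b has the lowest ratio, at -3.35.

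Over all gene lists, 39 of 41 had a count. The interval of the summed ratio lay above 0 for 9 lists, below 0 for 18 and included 0 for 12. On the total without ribosomal RNA these became 10 above and 11 below 0. The receptor complex, naive and memory, Ly6 surface, interferon-response, signalling, Th1 and cytotoxic and cytoskeleton lists were among those below 0 on both scales, and the class II, immediate early, tissue-residency, NF-kB and myeloid lists above 0 on both.

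**Figure D4:**
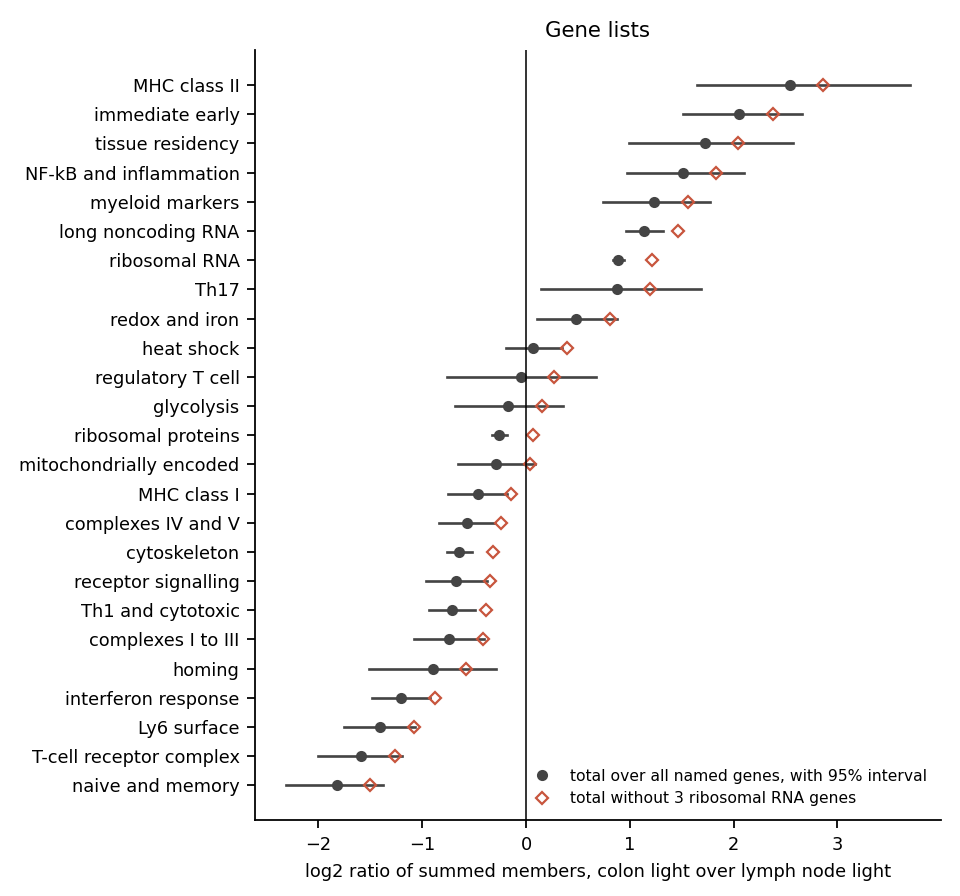
Log2 ratio of summed members, colon light over lymph node light (horizontal), for 25 gene lists; filled points and lines are the ratio and its exact 95% counting interval on the total over all genes, open diamonds the ratio without ribosomal RNA in the totals. Class II genes are highest at 2.55 and naive and memory genes lowest at -1.83, and the diamonds lie 0.33 higher for well-counted lists.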

How the data were processed

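Whole-number counts per gene and 7-base barcode column were deposited by the authors for oligo-dT primed libraries of sorted CD4 T cells. Per the submitters' processing notes, FastQC, STAR 2.5.1a and mm10 were used, with no counter named. The unnamed line of column totals and Foxp3 were left out. Gene names matched GENCODE M21 for 8606 of 8725 genes.

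Column patterns that recur across genes (265 in the colon light and 272 in the lymph node light library) were fitted to each gene by non-negative least squares. The fit was exact for 93.3% and 96.7% of genes, which hold 39.2% and 62.9% of counts. Molecule-equivalents are summed counts over the mean columns a molecule fills, weighted by size (49.9 and 50.4). The light libraries shared 374 barcodes of 382 and 379. Ratios used a prior count of 0.5 scaled to depth. The steps were tested on simulated data. The barcode sheet of the pooled sample was not used.

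Named genes were the 20 with the highest and the 20 with the lowest interval end on the side of 0, barring unnamed models, pseudogenes, receptor segments, haemoglobins, ribosomal proteins and mitochondrial genes, and in addition list members. Gm12374, CT010467.1, mt-Rnr1, mt-Rnr2 and 2410006H16Rik fall outside this rule and were named after their values were seen. The comparison and the 41 lists were chosen with earlier results of these data known, and Lars2, which is protein-coding, was taken off the noncoding list after its value was seen. Alternatives were other totals and scalings (edgeR 4.0.16 for TMM), prior counts, filters, barcodes, depth, lists without their largest member and each recovered molecule counted once. The total without Gm12374 and the reading against the receptor complex were added after seeing the data. The software was R 4.3.3 and, under Python 3.11.15, pandas 2.3.3, scipy 1.17.1, numpy 2.4.6 and matplotlib 3.10.9.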

Additional observations from a re-analysis of the deposited data

How the results depend on the processing

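All 40 named genes kept their direction under 7 alternatives: 2 other totals, median-of-ratios and TMM scaling, a prior count of 2, shared barcodes and each recovered molecule counted once. Their intervals excluded 0 for all 40, except 36 under TMM and 39 with recovered molecules counted once. The intervals do not use the prior count, so that alternative could not change them. The 40 genes had also been chosen from these data for intervals away from 0. The 41 higher and 59 lower genes became 53 and 31 without ribosomal RNA in the totals, 54 and 31 with median-of-ratios scaling, 65 and 22 with TMM, 55 and 29 when Gm12374 also left the total, 2351 and 3038 of 8722 genes with no count filter, 3 and 2 of 42 with at least 100 molecule-equivalents, and 17 and 54 of 210 with the deeper library thinned. Gene lists with an interval below 0 went from 18 to 11 without ribosomal RNA, to 11 with median-of-ratios scaling, to 11 without Gm12374 and to 6 with TMM, which raised those above 0 from 9 to 14. The ribosomal protein list turned to 0.0692 without ribosomal RNA, 0.0911 with median-of-ratios scaling, 0.296 with TMM and 0.12 without Gm12374. TMM turned the activation list to 0.0392 and the MHC class I list to 0.0848. Without their largest member, the redox and iron list turned to -0.12, the long noncoding list to -0.46 and the apoptosis list to 0.13. No paired analysis was possible because each group has 1 library.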

Other observations

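Further gene groups of the light-treated libraries showed small differences. Cell-cycle genes summed to -0.67 (-1.11 to -0.24), or -0.35 (-0.79 to 0.08) without ribosomal RNA in the totals, with Top2a, the topoisomerase of dividing cells, at 286 CPM in the colon light and 459 CPM in the lymph node light library, and Mki67 at 6 and 5 molecules. Mitochondrial ribosomal protein genes, none of them well counted, summed to -0.85 (-1.27 to -0.44). Translation factors summed to -0.10 (-0.33 to 0.14), with Ncl, the nucleolar protein nucleolin, at 775 against 258 CPM (1.53, 0.26 to 3.22). Proteasome and ubiquitin genes summed to -0.16 (-0.42 to 0.10). Glycolysis genes summed to -0.17 (-0.68 to 0.35), with Hk2 at 16 molecules against 1 and Gapdh at 9 against 12.

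Prox1, a transcription factor of lymphatic endothelium, had 22 molecules (507 CPM) in the colon light, 4 (108 CPM) in the lymph node light and 0 in the lymph node control library (2.08, 0.29 to 5.10), while Lyve1, Cdh5 and Kdr, other endothelial genes, had no count in either light library. Tmem71 (11 molecules) and Tcp1 (8.4 molecules), both of the lymph node light library, were listed at 0 in the colon light library, and Ano9 (21.9 molecules in the colon light library) was listed at 0 in both lymph node libraries. These 3 genes were chosen after their values were seen.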
